A study of Mus musculus with 21 samples.

Results

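The potassium channel genes of the mouse were followed in the ventral pons after the facial nerve was cut. They were taken from the count table as every symbol that starts with Kcn and a further letter. Of 99 such rows 4 antisense transcripts were left out, and of the 95 symbols that remained 89 had at least 30 counts summed over the 21 libraries. These 89 members stand among 22294 genes that met the same minimum. The 6 symbols left under it were Kcna7, Kcne1, Kcne3, Kcnj1, Kcnk16 and Kcnk18. The member with the fewest counts was Kcna10, with 36 in all libraries together, and the nearest symbol outside the rule was Kcnk18, with 25. The mean level of 77 members reached 1 CPM, a count scaled to the size of its library.

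All mice were of the C57BL/6 strain and carried the CX3CR1GFP/wt allele pair, in which 1 copy of the microglial receptor gene Cx3cr1 is replaced by green fluorescent protein, so the controls carried this allele as well. In the operated mice the right facial nerve was cut at the stylomastoid foramen at 8 weeks of age. The right pons gave the lesion groups and the left pons the contralateral groups at day 7 (9 weeks of age), day 14 (10 weeks) and day 30 (12 weeks). The left pons of unoperated mice of 8 weeks was day 0. Each of the 7 groups held 3 strand-marked messenger RNA libraries. The labels do not say whether the 3 came from separate animals, so p-values measure the spread between these libraries. The tissue block holds the facial nucleus together with parts of the neighbouring reticular and trigeminal nuclei, and the lesion was on the right in every operated mouse, so lesion and side of the brain cannot be told apart.

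Potassium channels let potassium ions leave or enter a cell and so set its resting potential and end its action potentials. Most pore-forming subunits fall into voltage-gated channels (the Kv families), channels gated by calcium or sodium, inward rectifiers (Kir, Kcnj genes) and leak channels with a pair of pore loops per subunit (K2P, Kcnk genes). Auxiliary subunits (Kcnab, Kcne, Kcnip, Kcnmb) form no pore and change the traffic or gating of others. In the brainstem, motor neurons carry leak and inward rectifier channels that hold them near rest, and astrocytes take up potassium through Kir4.1 (Kcnj10).

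The pore of these channels is built around a short selectivity filter, in most subunits a threonine or serine, a further residue, glycine, tyrosine or phenylalanine, and glycine. The coding sequences of the 4 genes that were called between lesion and contralateral side on more than 1 day, with the ERG channel Kcnh7 for comparison, show how this part is shared. Each line gives 21 bases on either side of the filter codons, read from the longest coding transcript of GENCODE M21 (GRCm38), and the capitals mark the 15 bases of the filter.
Kcnj14: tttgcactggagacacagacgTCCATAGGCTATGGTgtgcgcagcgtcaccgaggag
Kcnk6: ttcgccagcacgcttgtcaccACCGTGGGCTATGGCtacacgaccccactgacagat
Kcnk3, first pore loop: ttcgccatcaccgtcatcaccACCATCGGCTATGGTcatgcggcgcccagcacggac
Kcnk3, second pore loop: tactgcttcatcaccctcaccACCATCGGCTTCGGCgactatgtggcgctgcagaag
Kcng4: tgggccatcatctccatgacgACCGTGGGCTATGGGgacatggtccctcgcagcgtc
Kcnh7: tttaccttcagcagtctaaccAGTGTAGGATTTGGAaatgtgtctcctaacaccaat

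The filter was searched in frame, on the coding strand, as the 6 patterns ACNNNNGGNTANGGN, TCNNNNGGNTANGGN, AGNNNNGGNTANGGN, ACNNNNGGNTTNGGN, TCNNNNGGNTTNGGN and AGNNNNGGNTTNGGN, which do not overlap one another at a position. Of the 88 members with a coding sequence 73 held at least 1 of them, against 3.62% of all 21562 coding genes. The members without it were all 14 auxiliary subunits and Kcnrg, a soluble regulator. The patterns that begin with AG were added after the others had missed most Kcnh members, so they were in part fitted to the members and the share is a description. They are also wider than the filter, since TTN takes leucine codons and AGN arginine codons too, and the 3.62% counts such matches. A second match was found in 9 Kcnk members, Kcnk3 among them, and in Kcna6. That of Kcna6 at codon 240 has the leucine codon TTG where the filter has tyrosine or phenylalanine. It lies apart from the match at codon 422, so a match need not be a filter. Kcnk6 held a single one. Kcnj14 is on chromosome 7 (45816460 to 45824782, minus strand), Kcnk6 on chromosome 7 (29221926 to 29232515, minus strand), Kcnk3 on chromosome 5 (30588170 to 30625271, plus strand) and Kcng4 on chromosome 8 (119623854 to 119635680, minus strand), all in GRCm38.

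Libraries held 35874913 to 41448945 counts at day 0 and 17358868 to 29827291 in the operated groups. The 89 members took 0.608% to 0.718% of the counts. Mitochondrial transcripts took 2.81% to 7.29%, least in replicate 2 of the day 14 lesion side and most on day 30. The column names give lane number 1 for day 0 and day 7, 2 for day 14 and 3 for day 30. Each comparison of sides thus stayed within a lane number. The index sequences ACAGTG and GCCAAT each occur at both day 0 and day 7 under lane number 1. Libraries of 1 lane need different indexes, so day 0 and day 7 were not sequenced together in 1 lane. The labels do not name the run. Replicate 3 of the day 7 lesion side stood apart through choroid plexus transcripts, described with Kcne2. The block expressed markers of motor neurons and microglia in every library, with none of the 14 and 12 listed genes at 0 throughout a group.

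At day 0 the highest level per kilobase of exon among the members was that of Kcnj10, at 169 ± 16.5 CPM per kilobase (SD, n = 3). Kcnab2, a cytoplasmic beta subunit of Kv1 channels, followed at 136 ± 2.37, and its interval of libraries (133 to 137) did not overlap that of Kcnj10 (152 to 184). The axonal Kv1 channels Kcna1 and Kcna2 reached 64.7 ± 9.83 and 44.8 ± 7.49 per kilobase, and the ERG channel Kcnh2 42.5 ± 2.37. Of the 4 members called between the sides on more than 1 day, Kcng4 was 9th of 89 on this scale (35.4 ± 2.76), Kcnk3 22nd (12 ± 0.306), Kcnj14 38th (5.09 ± 0.376) and Kcnk6 64th (0.85 ± 0.193). These 4 members thus ran from abundant to scarce.

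Most members stayed close to 1 level in all 7 groups. For the 77 members of at least 1 CPM, the highest group mean was 1.33 times the lowest at the median. The same ratio was not counted over all genes of that level, so it has no background beside it. At this level 6 members spanned 2-fold or more between group means, namely Kcne2, Kcnj13, Kcnj14, Kcna3, Kcnk6 and Kcnmb1. The ratios of Kcne2 and Kcnj13, 37 and 5.54, have their highest mean on the day 7 lesion side. That group holds the library with choroid plexus transcripts, described with Kcne2. Kcnab2 and Kcnj10 were among the steadiest, with ratios of 1.1 and 1.13.

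Kcnj14 encodes Kir2.4, an inward rectifier known from the motor neurons of cranial nerve nuclei. It fell on the lesion side on each of the 3 days and gave the largest fall of any called member. At day 0 its 3 libraries held 14.1, 12.4 and 14.1 CPM. The contralateral libraries held 12.4, 14.9 and 15.1 CPM at day 7, 15.6, 13.1 and 15.2 at day 14 and 23.2, 14 and 15.1 at day 30. The lesion libraries held 2.77, 3.63 and 5.65 CPM at day 7, 3.8, 3.95 and 3.69 at day 14 and 4.81, 4.77 and 4.62 at day 30. All 9 lesion libraries lay below all 12 others, with no overlap, and the 1 high value among the controls was contralateral replicate 1 of day 30.

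The log2 difference of Kcnj14 between lesion and contralateral side was -1.79 ± 0.19 (SE) at day 7, -1.94 ± 0.19 at day 14 and -1.88 ± 0.18 at day 30, with adjusted p of 4.3e-06, 7.4e-07 and 3.4e-06 (edgeR quasi-likelihood test, Benjamini-Hochberg over all 22294 genes). These differences left 0.29, 0.26 and 0.272 of the contralateral level. Against day 0 the lesion side was also lower on each day, by -1.72, -1.82 and -1.51, while the contralateral side differed from day 0 by 0.07, 0.12 and 0.37, none of which passed the test (adjusted p 0.87, 0.7 and 0.14). The change in the lesion effect between days was small beside its error, -0.15 ± 0.27 from day 7 to day 14 and 0.06 ± 0.27 from day 14 to day 30. In a tissue block, fewer cells of a type and less RNA per cell cannot be told apart.

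Among the 14 motor neuron markers, 2 were lower and 1 higher at day 7, 5 lower and 2 higher at day 14, and 2 lower and 1 higher at day 30, so this list moved in part with Kcnj14. Their summed level ran from 4870 to 5350 CPM on the lesion side and 5340 to 5820 on the contralateral side at day 7, from 4800 to 5830 and 5270 to 5870 at day 14, and from 4540 to 5070 and 5050 to 6090 at day 30. The lesion median was the lower on each day (5040 against 5730, 5030 against 5580 and 4760 against 5080), the ranges overlapped narrowly at days 7 and 30, and day 0 ran from 4500 to 5150. Choline acetyltransferase (Chat), the enzyme that makes the motor neurons' transmitter, differed by -0.79 ± 0.22 at day 7, -1.54 ± 0.22 at day 14 and -0.83 ± 0.22 at day 30, and passed at day 14 alone (edgeR, adjusted p 0.13, 0.00062 and 0.11). Chat is 1 gene of this list, in which other markers were called higher on the lesion side on each day. The part of motor neuron number in the Kcnj14 values was not tested.

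Kcnk6 encodes TWIK-2, a tandem-pore channel known from macrophages and microglia, and was the member that rose on the lesion side. It held 2.67, 2.69 and 2.97 CPM on the contralateral side against 5.19, 5.13 and 5.65 on the lesion side at day 7. At day 14 the contralateral libraries held 2.54, 4.15 and 4.07 CPM and the lesion libraries 7.24, 5.73 and 6.74. At day 30 the values were 2.6, 3.66 and 3.8 against 5.49, 5.45 and 6.61. Day 0 libraries held 4.33, 2.79 and 3.3 CPM, so the lesion libraries of every day lay above all controls.

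The log2 difference of Kcnk6 between the sides was 0.94 ± 0.19 at day 7 (adjusted p 0.0039), 0.87 ± 0.18 at day 14 (0.0036) and 0.80 ± 0.18 at day 30 (0.019), or 1.92, 1.82 and 1.74 times the contralateral level (edgeR). At day 30 the call was lost without lesion replicate 3 (adjusted p 0.14) or without contralateral replicate 1 (0.21). The microglia list moved with Kcnk6. Of its 12 markers 11, 11 and 10 were higher on the lesion side on the 3 days, and their summed level was 568 to 704 CPM in the lesion libraries, 342 to 427 in the contralateral ones and 386 to 408 at day 0. The part of microglial number in the Kcnk6 values was not tested.

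Other members known from immune cells were not called between the sides, and their difference from Kcnk6 was not tested. Kcnk13, the microglial leak channel THIK-1, differed between the sides by -0.02 ± 0.11, 0.02 ± 0.11 and -0.02 ± 0.12 on the 3 days, signs that turned with single libraries left out, while the microglia markers rose. Kcna3, the Kv1.3 channel of T cells and activated microglia, differed by -0.06 ± 0.33 at day 7, -0.93 ± 0.30 at day 14 and 0.24 ± 0.29 at day 30, with adjusted p of 1, 0.08 and 0.92 (edgeR). At day 14 its lesion libraries, at 1.92, 0.856 and 1.73 CPM, all lay below the contralateral ones at 3.03, 3.06 and 2.42, and the adjusted p was 0.044 with DESeq2, 0.038 with no filter on low counts and 0.035 without lesion replicate 1. Kcnn4, a calcium-activated channel of blood cells, was listed at 0.0972 to 0.808 CPM and differed by 0.28 ± 0.40, 0.69 ± 0.46 and -0.25 ± 0.45 on the 3 days, none of which passed.

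**Figure D1:**
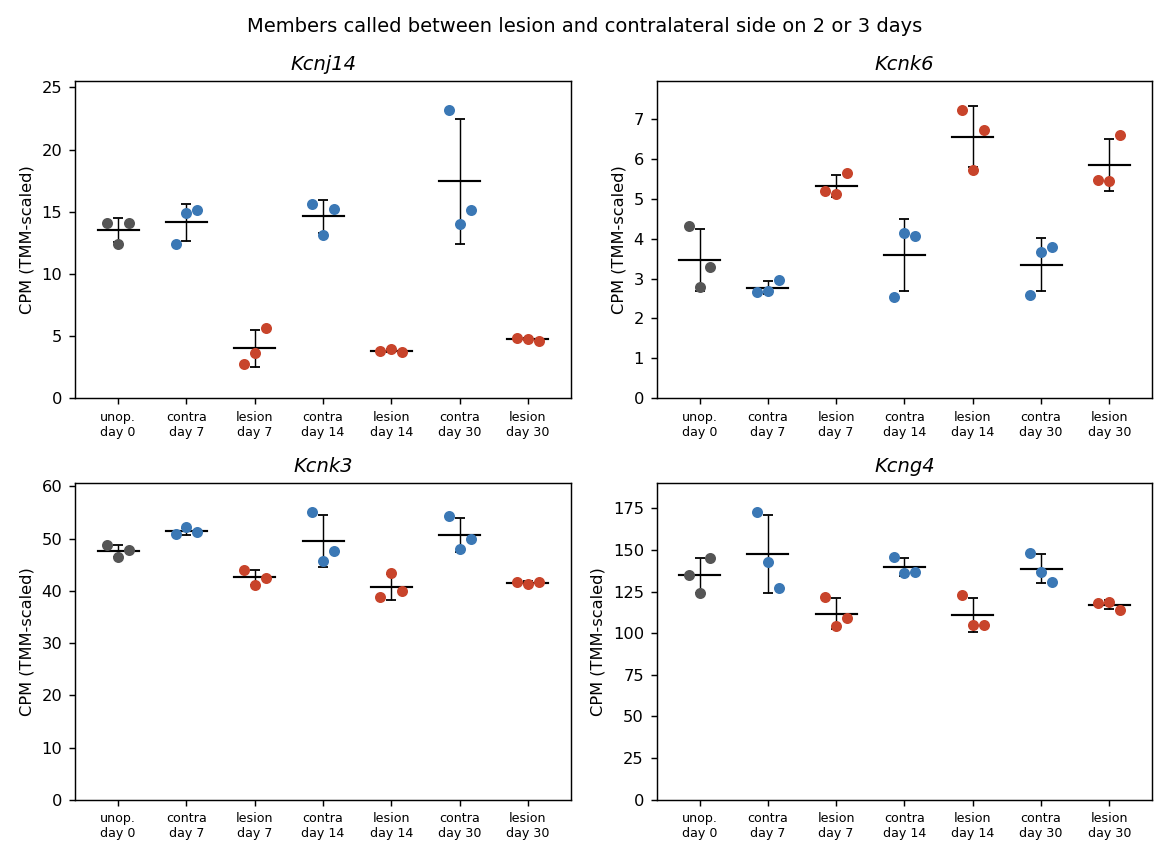
CPM (vertical axes, scaled by trimmed mean factors, from 0) of Kcnj14, Kcnk6, Kcnk3 and Kcng4 in the 7 groups; points are libraries, lines the mean and bars the SD of 3 libraries. Kcnj14 fell from 12.4 to 23.2 CPM in the controls to 2.77 to 5.65 on the lesion sides, while Kcnk6 rose and the other two shifted by less.

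Kcnk3 encodes TASK-1, an acid-sensitive leak channel of motor neurons and other brainstem cells. Its contralateral libraries held 50.9, 52.2 and 51.3 CPM at day 7, 55.2, 45.8 and 47.6 at day 14 and 54.4, 48 and 49.9 at day 30. The lesion libraries held 44.1, 41.2 and 42.5, then 38.9, 43.5 and 39.9, then 41.8, 41.3 and 41.7 CPM. The sides did not overlap on any day, and the differences of -0.27 ± 0.07, -0.28 ± 0.07 and -0.29 ± 0.07 passed the test on all 3 (edgeR, adjusted p 0.028, 0.015 and 0.024). The calls were close to the threshold. At day 7 any of lesion replicates 2 and 3 and contralateral replicates 1, 2 and 3 left out gave an adjusted p from 0.065 to 0.16. At day 14 leaving out lesion replicate 3 gave 0.059 and contralateral replicate 1 gave 0.15, and at day 30 lesion replicates 1, 2 and 3 and contralateral replicates 1 and 3 gave 0.07 to 0.23. Exons of Kcnk3 share 229 bases with Gm9899 on the other strand, and since it is not known whether counting used strand, reads of the pair may be mixed.

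Kcng4 encodes Kv6.4, a silent subunit that joins Kv2 subunits in 1 channel and forms none alone. It held 173, 143 and 127 CPM on the contralateral side against 122, 104 and 109 on the lesion side at day 7, 146, 136 and 137 against 123, 105 and 105 at day 14, and 148, 137 and 131 against 118, 119 and 114 at day 30. The lesion libraries lay below the contralateral ones each time. The differences were -0.40 ± 0.09 (adjusted p 0.014), -0.33 ± 0.09 (0.037) and -0.25 ± 0.09 (0.35), so only the first 2 passed (edgeR). With a block for replicate number the day 30 value passed too (0.021). The day 7 call was lost without lesion replicate 2 (0.12), lesion replicate 3 (0.071) or contralateral replicate 1 (0.13), and the day 14 call without lesion replicate 2 or 3 or any of the 3 contralateral replicates (0.085 to 0.23).

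Counted over all members, 1 was higher and 3 were lower on the lesion side at day 7, where 1.65% of all genes were called (1.56% higher and 0.0942% lower). At day 14, 1 was higher and 8 were lower, against a background of 3.88% (2.58% higher and 1.31% lower). At day 30, 1 was higher and 2 were lower, against 1.16% (1.04% higher and 0.121% lower). The calls of the members thus lay mostly on the lower side, while those of all genes lay mostly on the higher side. Both are measured from the contralateral side. At day 14 the members took 0.702% of the counts there on average (0.694% to 0.718%), the highest mean of the 7 groups. The lesion side of that day took 0.648% (0.633% to 0.672%) and day 0 took 0.658% (0.608% to 0.707%). Among genes of at least 1 CPM, to which most members belong, 0.136%, 1.86% and 0.168% were called lower on the 3 days and 2%, 3.26% and 1.25% higher.

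The median log2 difference of the 89 members was -0.05 at day 7, -0.12 at day 14 and 0 at day 30, against -0.01, 0 and 0 for all genes tested. Of the 77 members of at least 1 CPM, 55 lay below 0 at day 7, 59 at day 14 and 40 at day 30, or 71.4%, 76.6% and 51.9%, beside 53.7%, 50.5% and 50.1% of all 15480 genes of that level. These shares describe the members, which share libraries, and carry no test. At day 7, 2 members were called without lesion replicate 2, lesion replicate 3 or contralateral replicate 1, and at day 30, 1 was called without lesion replicate 3 or contralateral replicate 1. With a block for replicate number, which the libraries of days 7 and 30 supported, 5 members passed at day 7, with the beta subunit Kcnab1 added (-0.24, adjusted p 0.049). At day 30, 5 passed in place of 3, with Kcng4 and the silent subunit Kcns1 added. Kcns1 was higher by 0.46 (0.045; 0.097 with no block).

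**Figure D2:**
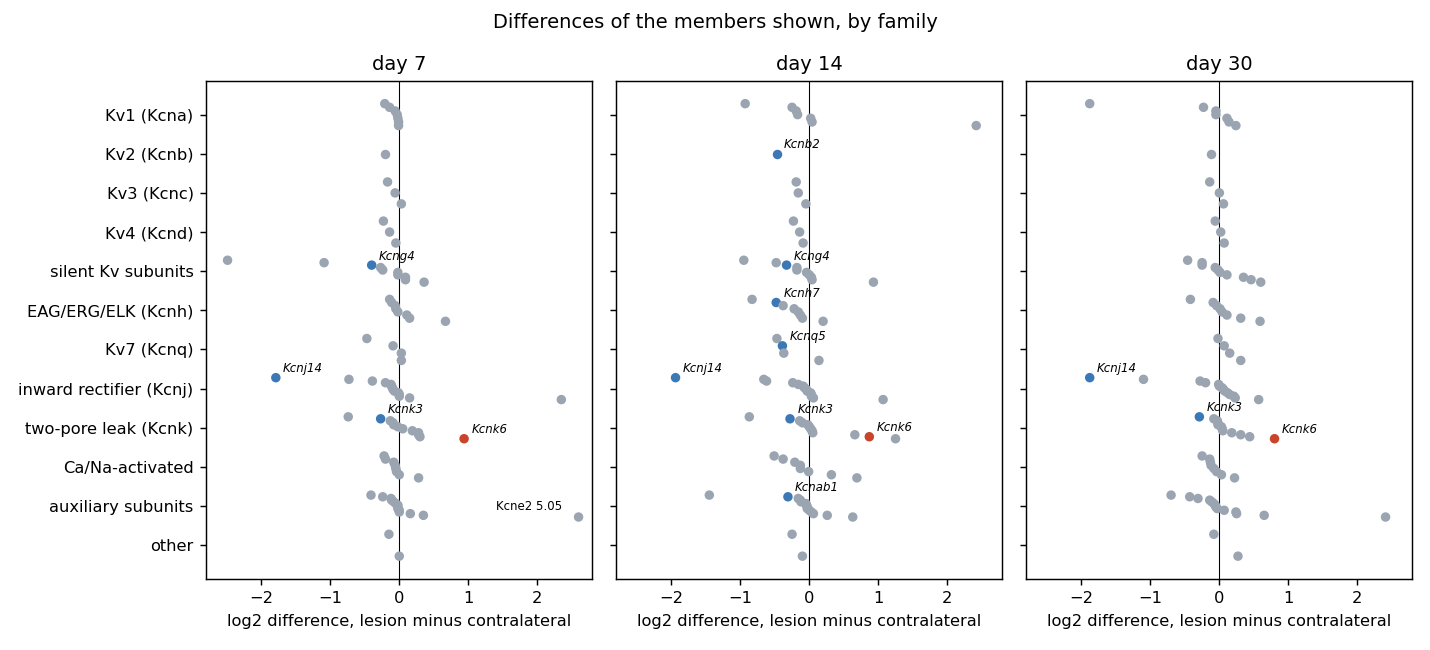
Log2 difference of lesion minus contralateral side (horizontal axes) for the members shown, by family, at days 7, 14 and 30; blue points were called lower, red higher and grey not called, and Kcne2 at day 7 (5.05) is drawn at the edge. Kcnj14 stands alone at the left among the called members, and at day 14 further called members of the Kv families lie below 0.

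By family, the voltage-gated channels gave calls only at day 14 apart from Kcng4. Kcnb2 was lower then, as were 1 of 8 Kcnh members (Kcnh7) and 1 of 5 Kcnq members (Kcnq5). None of the 7 Kv1, 4 Kv3 and 3 Kv4 members was called on any day in edgeR's test. Of these, 4, 3 and 0 had an unadjusted p under 0.05 at day 14, a limit at which all genes were not counted. Kcna2 came closest, with -0.25 ± 0.08 and an adjusted p of 0.057. Of 14 inward rectifiers Kcnj14 alone was called, of 12 leak channels of the Kcnk family Kcnk3 and Kcnk6, of 8 calcium- and sodium-activated channels none, and of 14 auxiliary subunits Kcnab1.

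Kcnh7 encodes ERG3, a channel that opens near rest and slows repetitive firing. At day 14 its contralateral libraries held 39.9, 35.9 and 43.1 CPM and the lesion libraries 30.6, 24.9 and 30.2, a difference of -0.48 ± 0.10 (edgeR, adjusted p 0.0032). Day 0 libraries held 29.6, 24.7 and 27.5 CPM, so at day 14 the lesion side overlapped day 0 and the contralateral side lay above it. Against day 0 the contralateral difference was 0.54 ± 0.09 (0.00017) and the lesion difference 0.07 ± 0.09 (0.7). Exons of Kcnh7 lie partly opposite those of Gca.

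The same order of groups was seen in 3 other members called at day 14. For Kcnq5, a Kv7 channel of the M-current, the contralateral libraries held 21.4, 20.2 and 22 CPM and the lesion libraries 17.3, 13.7 and 17.7, beside 17.7, 14.5 and 16 at day 0. Kcnab1 held 160, 166 and 157 CPM against 143, 116 and 130, with 132, 97.9 and 114 at day 0. Kcnb2, the Kv2.2 channel, held 23.3, 20.4 and 20.6 CPM against 17.1, 12.4 and 17.2, with 17.6, 13.7 and 15.1 at day 0. In each, the contralateral side was above day 0 in the test (0.40, 0.49 and 0.47, adjusted p 0.003, 9.1e-05 and 0.01 in edgeR) and the lesion side was not called against it (0.02, 0.18 and 0.00, with 0.94, 0.14 and 0.99). Without day 0 replicate 2 the contralateral call of Kcnb2 was lost (0.063).

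Replicate 2 of the day 14 lesion side, the library with the lowest mitochondrial share, was the lowest of its 3 for 41 of the 77 members. So was replicate 2 of the contralateral side of that day for 41 and replicate 2 of day 0 for 52. Without lesion replicate 2 of day 14, Kcnab1 (edgeR adjusted p 0.21), Kcnb2 (0.27), Kcng4 (0.23) and Kcnq5 (0.17) lost their calls. Of the 9 members called at day 14, 4 then remained. Without contralateral replicate 1 of that day 4 remained too, without contralateral replicate 2 or 3 there were 5, and without lesion replicate 1 there were 16. Kcnh7 passed in each of these. Calls also ended without contralateral replicate 2 for Kcnb2 (0.082) and Kcnab1 (0.12), without contralateral replicate 1 for Kcnq5 (0.06), Kcnab1 (0.066) and Kcnb2 (0.14), without contralateral replicate 3 for Kcnq5 (0.083), Kcnb2 (0.081) and Kcnab1 (0.062), and without lesion replicate 3 for Kcnab1 (0.066). DESeq2 called 16 members at day 14, the same 9 among them. The share of all genes that DESeq2 called was not counted.

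**Figure D3:**
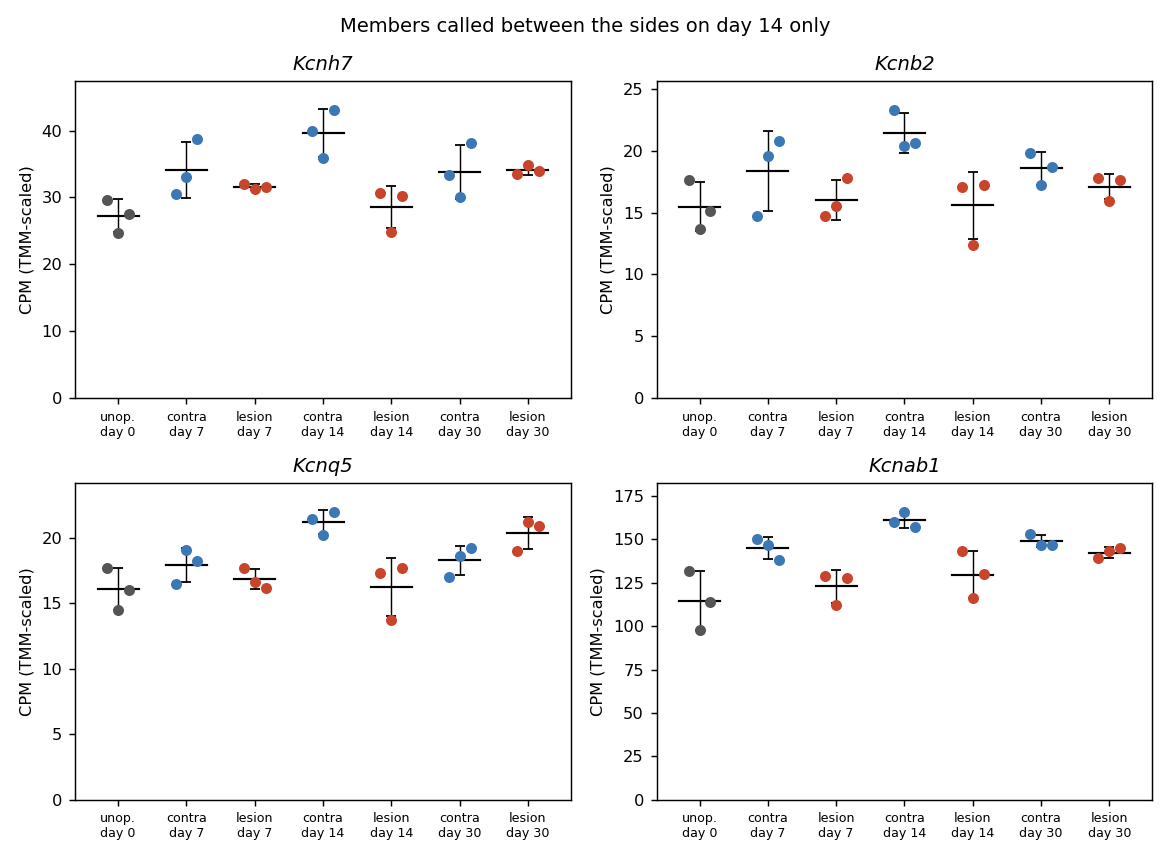
CPM (vertical axes, from 0) of Kcnh7, Kcnb2, Kcnq5 and Kcnab1 in the 7 groups, with points for libraries, lines for the mean and bars for the SD of 3 libraries. At day 14 the contralateral libraries lie above the lesion libraries in each panel, and the lesion libraries lie in or near the range of day 0.

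The change of the lesion effect between days was tested directly. By edgeR no member was called from day 7 to day 14 or from day 14 to day 30. Among all genes 0 and 0.0807% were called. An unadjusted edgeR p under 0.05 was reached by 10 and 17 members. The share of all genes at that limit was not counted. DESeq2 called 0 and 1 members, the latter Kcna2 at 0.40, and limma-voom called 0 and 0. Kcnh7 shifted by -0.36 ± 0.14 and then 0.49 ± 0.14, and Kcnq5 by -0.29 ± 0.14 and 0.54 ± 0.13, with adjusted p from 0.12 to 0.82. A difference of the day 14 effect from that of the other days was therefore not shown.

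Other ion transport genes gave a scale for these counts. Of 50 sodium channel, calcium channel, HCN and pump or chloride transporter genes tested, 2 were higher and 0 lower at day 7, 2 higher and 3 lower at day 14, and 0 higher and 1 lower at day 30, with medians of -0.01, -0.16 and 0. The higher ones were the sodium channel Scn9a (0.56 ± 0.11 and 0.51 ± 0.10 at days 7 and 14) and the calcium channel subunit Cacna2d1 (0.52 ± 0.09 and 0.70 ± 0.09). Of 13 partner proteins of potassium channels, which anchor or cluster them, only Cntnap2 was called, at day 14 (-0.30 ± 0.07, adjusted p 0.013 in edgeR). The medians at day 14 were below 0 in the members and in this list alike.

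Against day 0 the members were called more often, on both sides of the pons. On the lesion side 7 were higher and 9 lower at day 7, where 12.5% of all genes were called (8.14% higher and 4.32% lower). At day 14, 5 were higher and 14 lower, against 16.8% (9.78% and 7.03%), and at day 30, 12 and 14, against 22.4% (12.7% and 9.69%). On the contralateral side 7 were higher and 4 lower at day 7, against 10.5% (6.84% and 3.66%). At day 14, 13 were higher and 3 lower, against 15.8% (9.09% and 6.73%), and at day 30, 12 and 6, against 16.1% (9.32% and 6.81%). Several of these counts hung on 1 library: at day 7 the lesion side gave 10 calls without day 0 replicate 3 and 7 without lesion replicate 3, the contralateral side 5 without contralateral replicate 2, and at day 30 the lesion side 17 without lesion replicate 2. In all, 39 members were called in at least 1 of these 6 comparisons, none in both directions, and 50 in none. The share of all genes called in at least 1 of them was not counted, so the 39 have no background beside them. The 6 comparisons share the 3 day 0 libraries. Day 0 differed from all operated groups in age, depth, operation and sequencing lane or run as well, which cannot be told apart.

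Kcnj3 encodes Kir3.1, a subunit of the G-protein-gated channels that inhibitory transmitters open. Day 0 libraries held 44.2, 33.3 and 40.2 CPM. The 9 contralateral libraries ranged from 54.3 to 69.9 CPM and the 9 lesion libraries from 53 to 66.5, so all 18 lay above day 0 and the sides overlapped. The differences from day 0 were 0.62, 0.69 and 0.56 on the lesion side and 0.72, 0.76 and 0.52 on the contralateral side at days 7, 14 and 30 (each ± 0.08, edgeR adjusted p from 1.7e-07 to 4.3e-05), and they passed in every alternative fit. Between the sides Kcnj3 differed by no more than -0.11 ± 0.08 on any day. A noncoding gene, Gm26794, lies partly opposite its exons.

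Kcnj12 encodes Kir2.2, a classical inward rectifier, and fell where Kcnj3 rose. Its day 0 libraries held 19.5, 22.6 and 19.2 CPM and the 18 operated libraries 12.3 to 16.8, with no overlap. The differences from day 0 were -0.41, -0.50 and -0.67 on the lesion side and -0.31, -0.45 and -0.39 on the contralateral side (each ± 0.09, edgeR adjusted p from 6.6e-06 to 0.027). At day 30 the lesion libraries (13.7, 12.6 and 12.3 CPM) lay below the contralateral ones (16.4, 15.1 and 15.4), a difference of -0.28 ± 0.10 that did not pass (0.29). At day 7 the contralateral call was lost without any of the 3 contralateral replicates (0.065 to 0.092) or without day 0 replicate 2 (0.15). Kcnj3, Kcnj12, Kcnip4 and Kcnq1ot1 were the 4 members called in all 6 comparisons, the first and the last 2 higher and Kcnj12 lower.

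Kcnip4 encodes a calcium-binding subunit of Kv4 channels. It held 39.1, 41.7 and 37.9 CPM at day 0 and differed from it by 0.23 to 0.41 in the operated groups, the smallest of which, on the lesion side at day 14, was lost without day 0 replicate 1 (0.062), day 0 replicate 3 (0.096) or lesion replicate 3 (0.12). Kcnd2, the Kv4.2 channel to which such subunits bind, was higher on the contralateral side by 0.38, 0.34 and 0.36 and on the lesion side at day 30 by 0.30 (edgeR adjusted p 0.001, 0.0023, 0.0014 and 0.005). Kcnq1ot1 is a noncoding RNA transcribed opposite Kcnq1 and no channel. It was higher by 0.41 to 0.74, and without day 0 replicate 2 its calls of day 7 and day 30 were lost on both sides (adjusted p from 0.077 to 0.2). Those of day 7 also ended without day 0 replicate 1, lesion replicate 2 or 3, or contralateral replicate 2 or 3 (0.065 to 0.29), and those of day 30 without lesion replicate 2 (0.21) or contralateral replicate 1 or 3 (0.075 and 0.065).

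Kcna3 was lower than day 0 on both sides and, of the members called there, fell most on the contralateral side at days 7 and 30. Its day 0 libraries held 5.88, 4.45 and 3.09 CPM. The contralateral libraries held 0.975, 1.64 and 2.14 at day 7, 3.03, 3.06 and 2.42 at day 14 and 2.55, 1.58 and 2.4 at day 30. The lesion libraries held 1.62, 1.29 and 1.68, then 1.92, 0.856 and 1.73, then 3.1, 2.63 and 1.94 CPM. Only replicate 1 of the day 30 lesion side overlapped day 0.

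Against day 0 Kcna3 differed by -1.54 ± 0.28, -1.59 ± 0.28 and -0.79 ± 0.26 on the lesion side at days 7, 14 and 30, and by -1.49 ± 0.28, -0.66 ± 0.26 and -1.03 ± 0.27 on the contralateral side. All passed but the contralateral value of day 14 (edgeR adjusted p 0.09). Without day 0 replicate 1 both day 30 calls were lost (0.15 on the lesion side and 0.056 on the contralateral side), and so was the lesion call without day 0 replicate 2 (0.065) or lesion replicate 2 (0.074) or 3 (0.14), and the contralateral call without contralateral replicate 2 (0.066). The day 7 groups gave 0.344 and 0.357 of the day 0 level. By the shared indexes they ran in another lane or run than day 0. Of the 12 microglia markers, 11 were higher than day 0 on the lesion side on each day. On the contralateral side 0 of 12 were called at day 7, 2 lower at day 14 and 1 higher at day 30. The part of microglial number in the Kcna3 values was not tested.

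Kcnk13 fell on both sides too, from 30.9, 34 and 35.7 CPM at day 0 to between 20.1 and 29.9 in the 18 operated libraries, below every day 0 value. The differences were -0.34, -0.47 and -0.58 on the lesion side and -0.32, -0.49 and -0.56 on the contralateral side (each ± 0.11), and all passed but the contralateral value of day 7 (edgeR adjusted p 0.065). At day 7 the lesion call, at 0.046, was lost without day 0 replicate 2 or 3 or lesion replicate 2 or 3 (0.095 to 0.21). Kcnj16, which pairs with Kcnj10 in astrocytes, rose instead, by 0.40 ± 0.06 on either side at day 30 (edgeR adjusted p 1.5e-05 and 2.1e-05), while Kcnj10 itself differed from day 0 by -0.07 to 0.10 and was not called.

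**Figure D4:**
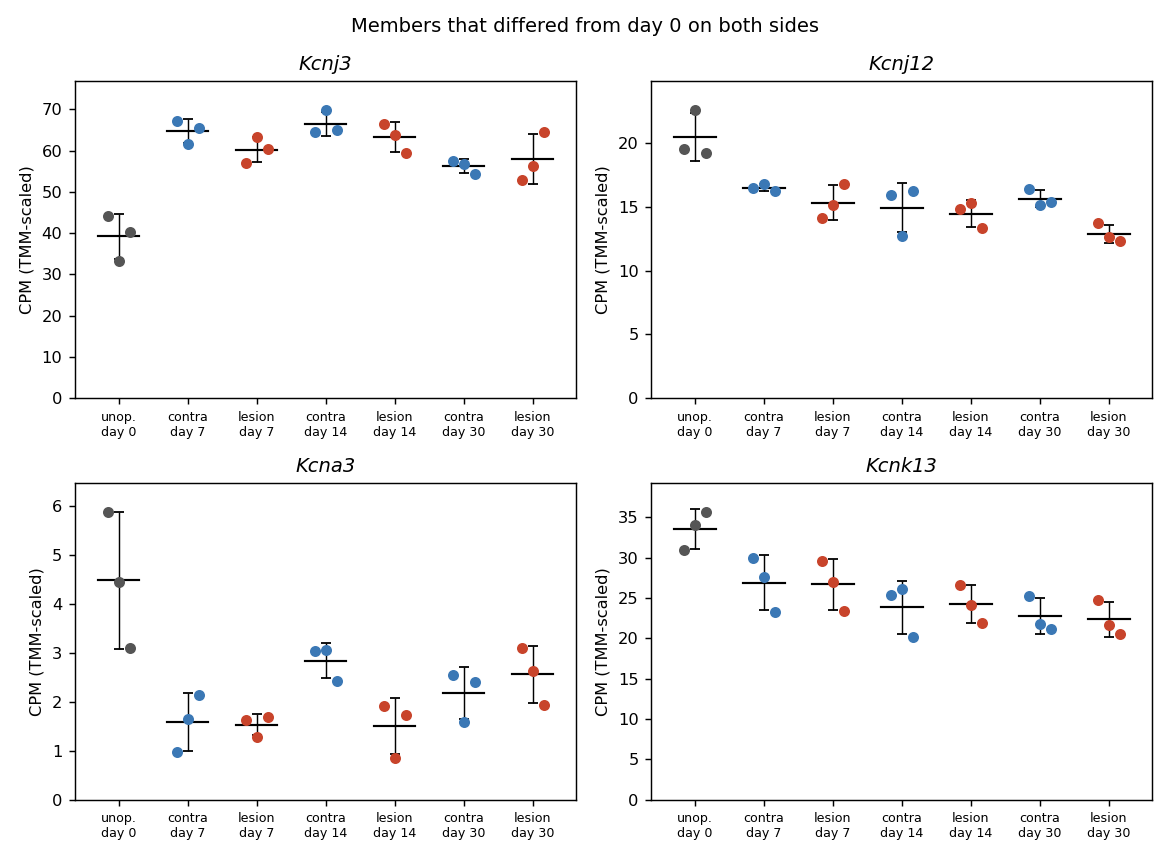
CPM (vertical axes, from 0) of Kcnj3, Kcnj12, Kcna3 and Kcnk13 in the 7 groups, with points for libraries, lines for the mean and bars for the SD of 3 libraries. The operated groups of both sides lie above day 0 for Kcnj3 and below it for Kcnj12 and Kcnk13, and lesion and contralateral points are apart only for Kcnj12 at day 30 and Kcna3 at day 14.

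Members called against day 0 on the lesion side alone were set beside the contralateral values. Kcnk6 differed from day 0 by 0.62, 0.92 and 0.75 on the lesion side (edgeR adjusted p 0.016, 0.00028 and 0.0019) and by -0.32, 0.05 and -0.05 on the contralateral side, none of them called. The day 7 call was lost without day 0 replicate 2 (0.098), day 0 replicate 3 (0.061) or lesion replicate 3 (0.073). Kcnj14 and Kcnk6 were the 2 members called on the lesion side on all 3 days and on the contralateral side on none. Kcnk3 was lower than day 0 on the lesion side at days 14 and 30, by -0.23 and -0.20 (adjusted p 0.018 and 0.032). These ended without day 0 replicate 1 (0.058 and 0.085), and also without lesion replicate 1 or 3 at day 14 (0.073 and 0.067) and day 0 replicate 3 or any lesion replicate at day 30 (0.068 to 0.086). Kcne4, a small membrane subunit that reduces Kv1 currents, was higher at day 7 (0.87 ± 0.20, adjusted p 0.0032), while its difference between the sides, 0.35 ± 0.20, did not pass.

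The widest spread between libraries belonged to a pair of genes of the choroid plexus, the epithelium that makes cerebrospinal fluid. Kcne2, a subunit of the potassium channels of that epithelium, held 29.9 CPM in replicate 3 of the day 7 lesion side, 10.4 in replicate 3 of the day 14 contralateral side and 2.87 in replicate 2 of the day 14 lesion side, and 0.0469 to 1.06 in the other 18 libraries. Kcnj13, its inward rectifier Kir7.1, held 8.62 CPM in the first of these, 2.92 in the second and 1.08 in the third, and 0.507 to 1.05 in the rest. Transthyretin (Ttr), the epithelium's main secreted protein, held 4350, 878 and 360 CPM in the same 3 libraries and 3.61 to 112 elsewhere.

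Kcne2 was called at day 7 on the lesion side against day 0 (5.2 ± 1.51, edgeR adjusted p 0.036), and without lesion replicate 3 the value was 1.16 with an adjusted p of 0.74. The call was also lost without day 0 replicate 1 (0.054), 2 (0.11) or 3 (0.12). None of the 9 choroid plexus markers was called between the sides on any day, and their summed level was 6690 CPM in replicate 3 of the day 7 lesion side. Exons of Kcnj13 lie opposite those of Gigyf2. Without replicate 3 of the day 7 lesion side, 7 members in place of 16 were called against day 0.

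**Figure D5:**
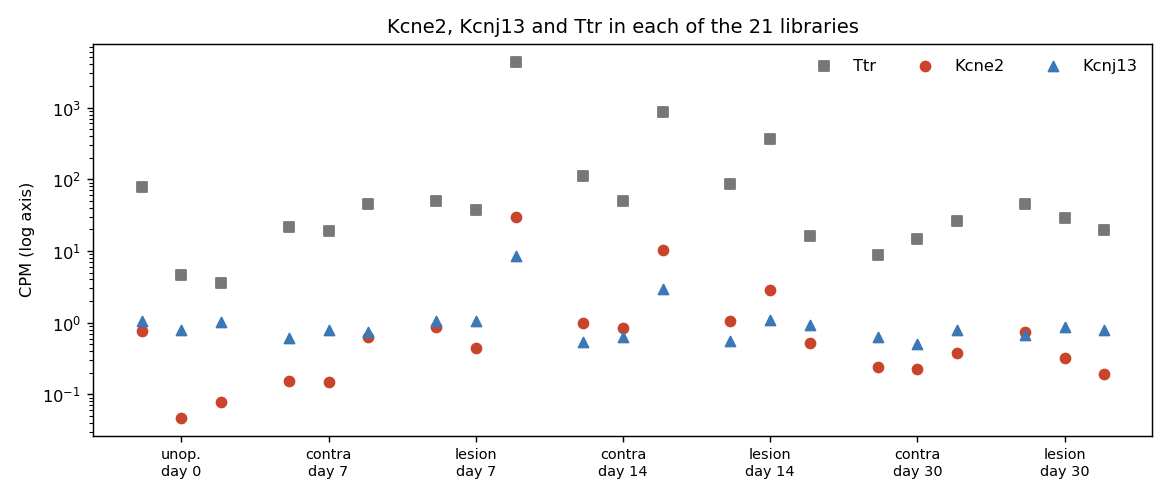
CPM (vertical log axis) of Ttr, Kcne2 and Kcnj13 in each of the 21 libraries, in the order of groups and replicates. Ttr, Kcne2 and Kcnj13 are all highest in replicate 3 of the day 7 lesion side (4350, 29.9 and 8.62 CPM) and next highest in replicate 3 of the day 14 contralateral side.

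The remaining named members were not called between the sides in edgeR's test. Kcnj10 held 811 to 1020 CPM in the operated libraries and differed between the sides by 0.00 ± 0.08, -0.03 ± 0.08 and -0.01 ± 0.08. Kcna1 differed by -0.19 ± 0.08 at day 14 and by 0.11 ± 0.08 at day 30 (edgeR adjusted p 0.17 and 0.82). Kcnj8, the pericyte subunit of ATP-sensitive channels, was not called between the sides and was lower than day 0 at day 30 by -0.43 on the lesion side and -0.64 on the contralateral side (0.032 and 0.003). The lesion value lost its call without any of the 3 day 0 replicates or lesion replicate 2 or 3 (0.052 to 0.14).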

How the data were processed

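Per the labels' protocols, libraries came from a TruSeq Stranded mRNA kit. Per the series' design text, single reads were aligned with Rsubread at default settings to GENCODE M7 and counted with featureCounts. The submitters' processing notes also name CASAVA 1.8.2, limma and GRCm38.p4. The deposited count table holds raw counts per gene symbol. Whether counting used strand is not given in the sources used here, so 26 members lying opposite another gene's exons are uncertain, as are 2 that overlap a neighbour on their own strand. The deposited log2 matrix holds log2 CPM of the 22294 genes kept by the authors' filter on summed counts, which a minimum of 30 reproduced here. At day 30 the count columns name the sides the other way round from the labels. The sample descriptions, which tie columns to samples, were followed, and all day 30 directions rest on this assignment. In the deposited log2 matrix the day 30 side letters follow the labels. Its values matched log2 values recomputed from the counts so assigned to within 5e-11.

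Counts were fitted in edgeR 4.0.16 (R 4.3.3) by the robust quasi-likelihood method with TMM scaling, a term for each of the 7 groups and all 21 libraries together. A gene was called at a Benjamini-Hochberg adjusted p under 0.05, two-sided. With 3 libraries a group, the smallest p an exact test could give is 0.1. The scripts were tested on simulated data. Positions and overlaps come from GENCODE M21. Members, gene lists and tests were chosen with earlier results of these data known. Members named are those called between the sides, up to 6 by p in each other comparison, the most abundant and the lowest-p member of each family, Kcnj14, Kcna3, Kcnq1ot1 and a few known from other cell types; Kcnrg and Kcna6 were named after the filter search. Some values and sequences of members are not reported here, though all 89 members stay in the counts.

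Sides share replicate numbers in the labels. Same-numbered libraries correlated, once group means were removed, by 0.167 to 0.273 at day 7, -0.003 to 0.269 at day 14 and 0.194 to 0.215 at day 30. A pairing by number was thus taken as borne out at days 7 and 30 and not at day 14. The main tests did not use it on any day. The replicate block, an alternative fit, covered every operated day.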

Additional observations from a re-analysis of the deposited data

How the results depend on the processing

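The alternatives were DESeq2's size factors, DESeq2 1.42.0, limma-voom (limma 3.58.1), limma on the deposited log2 matrix, no filter on low counts, edgeR's filterByExpr, a fit of the compared groups only, each library left out, a block for replicate number and, besides the adjusted p, a log2 change of at least 1.7. Of the 15 calls of reported members between the sides 6 held throughout (Kcnj14 on 3 days, Kcnk6 at days 7 and 14, Kcnh7 at day 14), 9 were lost at least once and 0 turned sign. Of 102 such calls against day 0, 49 held, 53 were lost at least once and 0 turned sign. Causes were not tested.

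The number of members called between the sides was 4 at day 7, with 2 to 4 when 1 library was left out and 1 past the log2 limit. At day 14 it was 9, with 16 in DESeq2, 5 in the fit of the compared groups, 4 to 16 with 1 library left out, 22 with the replicate block, which the libraries of that day did not bear out as a pairing, and 1 past the log2 limit. At day 30 it was 3, with 6 in the fit of the compared groups, 1 to 3 with 1 library left out, 5 with the replicate block and 1 past the log2 limit. Against day 0 the log2 limit left 2, 1 and 0 of 16, 19 and 26 on the lesion side and 0, 0 and 1 of 11, 16 and 18 on the contralateral side. The fit of the compared groups gave 10 on the lesion side at day 14 and 5 on the contralateral side at day 7. With 1 library left out the lesion side gave 7 to 17 at day 7 and 17 to 25 at day 30, and the contralateral side 5 to 12 at day 7. For the change of the lesion effect from day 14 to day 30, where 0 were called, DESeq2 gave 1, no filter 3, the compared groups 1, the replicate block 7 and leaving out 1 library 0 to 4, the most without lesion replicate 1 of day 14. At days 7 and 30 the replicate block changed no other call of a named member between the sides than those of Kcnab1, Kcng4 and Kcns1. The share of all genes called was counted for the main fit only. The member counts of the alternatives therefore have no background beside them.

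The fit of the compared groups lost Kcng4 at day 7 (adjusted p 0.26) and Kcnk3 (0.13), Kcnq5 (0.1), Kcnab1 (0.062) and Kcnb2 (0.082) at day 14, and gained Kcng4 at day 30 (0.0027). Some uncalled differences turned sign when 1 library was left out, most of them near 0, but also Kcne2 and Kcnj13 at day 14 (-1.45 and -0.66) and Kcne2 at day 30 (0.65). At day 7 the log2 difference then ran from -0.31 to 0.22 for Kcna3 (0.01 by limma on the deposited matrix), -0.11 to 0.07 for Kcnk13, -0.33 to 0.06 for Kcnj8, -0.06 to 0.03 for Kcna2, -0.13 to 0.01 for Kcnc4 and -0.08 to 0.01 for Kcnab2. At day 14 it ran from -0.11 to 0.01 for Kcnj10, -0.09 to 0.09 for Kcnk13, -0.02 to 0.12 for Kcnj8, -1.03 to 0.59 for Kcnj13 and -2.42 to 0.73 for Kcne2. At day 30 it ran from -0.06 to 0.11 for Kcnh7, -0.05 to 0.02 for Kcnj10, -0.11 to 0.06 for Kcnk13, -0.13 to 0.95 for Kcne2, -1.08 to 0.12 for Kcnn4, -0.22 to 0.03 for Kcnq1ot1 and -0.04 to 0.07 for Kcnt1.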
